A study of Mus musculus with 8 samples.

Results

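Expression of 9 genes of newborn olfactory bulb neurons (Dcx, Sox11, Sp8, Dlx1, Dlx2, Dlx5, Vax1, Vax2 and Cd24a) was examined in the olfactory bulb of mice raised in plain or enriched housing and then exposed to clean air or diesel exhaust. The genes were taken by name from the array design. They had 15 noncontrol probes among the 55681 of the array, which carry 34797 gene names in all. Of these 15 probes, 14 gave a signal well above background on all 8 arrays, and each of the 9 genes kept at least 1 probe.

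The olfactory bulb goes on receiving new neurons after birth. Neuroblasts born in the wall of the lateral ventricle migrate along the rostral migratory stream and become granule and periglomerular interneurons, which use GABA and, in a fraction of periglomerular cells, dopamine. Dcx, Sox11 and Cd24a are known from the migrating and immature cells, while the homeodomain factors Dlx1, Dlx2, Dlx5, Vax1 and Vax2 and the zinc finger factor Sp8 belong to programs of ventral forebrain and interneuron fate.

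The samples were male C57BL/6J offspring of dams placed at gestational day 14 in a standard cage (groups C-C and C-DE) or in environmental enrichment (EE-C and EE-DE), a larger cage with a running wheel, shelter and toys. From weaning on postnatal day 27 they stayed in the same type of housing inside a clean air chamber (C-C, EE-C) or a chamber with diesel exhaust at 90 µg/m3 (C-DE, EE-DE) for 8 hours a day over 28 days, from postnatal day 28 to 55, and the bulbs were collected at 56 days of age. By the methods, each group was pooled into 1 RNA sample (9 mice for EE-DE, 8 for EE-C and 7 for either standard-cage group), which was run on 2 single-colour arrays. A group is therefore 1 sample with 2 technical arrays, so no test of a difference between 2 groups was possible, and an additive fit over all 4 pools is given further on. Each difference is given with its range over the 4 pairings of arrays, which covers array error and not the spread between mice.

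Every array was on a single slide whose columns followed the housing, so that rearing and slide column cannot be told apart. The 75th percentile of noncontrol intensity, used to scale each array, ranged from 644 to 716. Between 68.0% and 70.6% of noncontrol spots were well above background on 7 arrays and 56.7% on EE-DE 1, and no spot was saturated. Of the bulb markers checked, 9 of 10 mature interneuron genes (among them Gad1, Th and Calb2, with the accessioned Calb1 probe dim on EE-DE 1) and all 7 mitral and tufted cell genes, among them Tbx21 and Cdhr1, passed the same filter. Markers of the olfactory mucosa were present too, and they differed between pools. The summed signal of 9 mucosa supporting cell genes was 5.22 and 9.37 on the C-C arrays, 2.64 and 3.38 on C-DE, 3.23 and 8.69 on EE-C, and 7.52 and 12.7 on EE-DE, in multiples of the array's 75th percentile.

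The measurements of the family turn on a few probes, and the first 30 of their 60 bases are shown here 5′ to 3′, as given by the scanner files. Vax2 had a single probe, and it was the member probe with the largest difference between pools. The Vax1 probes lie 8 bases apart on the same transcript and gave different values. Of the Dlx1 probes, the first was bright and the second, for another transcript, was not well above background on any array. Coordinates are of the mm9 build, and capitals mark each GT.
Vax2, A_55_P1961620, chr6:83688239-83688268, plus strand: GTGTGTGTGTctgaGTatGTatGTGTcact
Vax1, A_55_P2048833, chr19:59240775-59240804, minus strand: tgacgatggctgGTtcgctagccgggaatt
Vax1, A_55_P2116880, chr19:59240707-59240736, minus strand: ttcgagccttactcccggaccaacaataaa
Dlx1, A_52_P464831, chr2:71371499-71371528, plus strand: GTtGTcaaaaacGTttggacaagaacacct
Dlx1, A_55_P1973623, chr2:71367411-71367440, plus strand: cgcgactccgcgatccagagaccgcggccg

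The Vax2 probe holds a run of GT repeats. The dinucleotide GT, searched on the printed strand, occurs 10 times in its 60 bases, and 0.53% of all 55681 noncontrol probes hold it as often. This was counted after the values of the probe had been seen. Of the 183 probes that passed with at least as many, 1 (0.546%, against 0.576% of all probes) was past 1.5-fold between C-DE and C-C, and that probe was Vax2 itself. Between EE-DE and C-C, 2 of the 183 (1.09%, against 0.815% of all probes) were past 1.5-fold, 1 of them Vax2. The Dlx1 probe without signal consists of G and C at 73.3% of its bases, against 41.7% in the Dlx1 probe that was measured.

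Vax2 was the only member with a probe that passed and differed between pools by more than 1.5-fold (0.585 on the log2 scale), and it was lower in the diesel exhaust pools. Vax2 is a homeodomain factor best known for setting up the ventral retina, and its paralog Vax1 acts in ventral forebrain and optic nerve. Levels are given as log2 of the signal minus log2 of the array's 75th percentile. Vax2 measured -0.76 and -0.74 on the C-C arrays, -1.75 and -1.11 on C-DE, -0.79 and -1.29 on EE-C, and -1.71 and -1.37 on EE-DE. The C-C arrays were the highest and lay close together, and each diesel exhaust array was below each clean air array of the same housing while C-DE 2 lay above EE-C 2 of the other housing. The pool means with their SD over 2 arrays were -0.75 ± 0.01 for C-C and -1.43 ± 0.45 for C-DE in standard cages, and -1.04 ± 0.36 for EE-C and -1.54 ± 0.24 for EE-DE with enrichment.

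In standard cages, Vax2 was lower with diesel exhaust by 1.60-fold (C-DE minus C-C, -0.68, range -1.01 to -0.35). It was 1 of the 14 member probes past 1.5-fold in this comparison, where 0.576% of the 21709 probes that passed were. With enrichment the difference was smaller than 1.5-fold at 1.42-fold (EE-DE minus EE-C, -0.50, range -0.92 to -0.08), and 0 of 14 member probes were called beside 0.944% of all probes. It was -0.75 without EE-C 2 and -0.67 without EE-DE 2, both past the threshold, and -0.25 without EE-C 1. The difference between these exposure effects was 0.18 with a range of -0.57 to 0.92 over the 16 combinations of arrays, and it had no test. The 2 arrays of C-DE differed by 0.63, a gap that 0.576% of all probes reached or exceeded on these arrays, and without C-DE 1 the difference from C-C was -0.36, under the threshold. Without C-DE 2 it was -0.997.

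The pool that combined enrichment with diesel exhaust had the lowest Vax2 mean. EE-DE was lower than C-C by 1.73-fold (-0.79, range -0.97 to -0.62), so that each pairing of arrays was past 1.5-fold, which held for 0.111% of all probes, and Vax2 was again the 1 member probe called beside 0.815% of all probes. Without EE-DE 1, the array with fewer spots above background, the difference was -0.63, and that between EE-DE and EE-C was -0.33. Rearing alone gave smaller differences when all arrays were used. EE-C minus C-C was -0.29 (range -0.55 to -0.03) and EE-DE minus C-DE was -0.11 (range -0.60 to 0.37), with 0 of 14 member probes called beside 0.825% and 0.636% of all probes. This ranking depended on EE-C 1. Without that array EE-C minus C-C was -0.54 and EE-DE minus EE-C was -0.25. Without EE-C 2, EE-C minus C-C was -0.04. EE-DE minus C-DE ranged from -0.43 to 0.20 when an array was left out. Pools that follow each other in the descending order of means (C-C, EE-C, C-DE, EE-DE) were not separated by more than the gap between the arrays of a pool. With normexp background correction, which adds an offset and shrinks differences of dim spots, the Vax2 differences were -0.53 for C-DE minus C-C and -0.55 for EE-DE minus C-C, both under the threshold.

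The range of the 4 Vax2 pool means was 0.79, and 0.907% of all probes had a range as large. Among the 2674 probes within 0.5 of its level the share was 0.785%, and the median range over all probes was 0.13. The gap between the 2 arrays of a pool was small for Vax2 in C-C and large in the other pools. It was 0.018 in C-C, where the 95th percentile at that brightness was 0.249, and 0.63, 0.50 and 0.33 in C-DE, EE-C and EE-DE, where it was 0.245, 0.384 and 0.257.

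**Figure D1:**
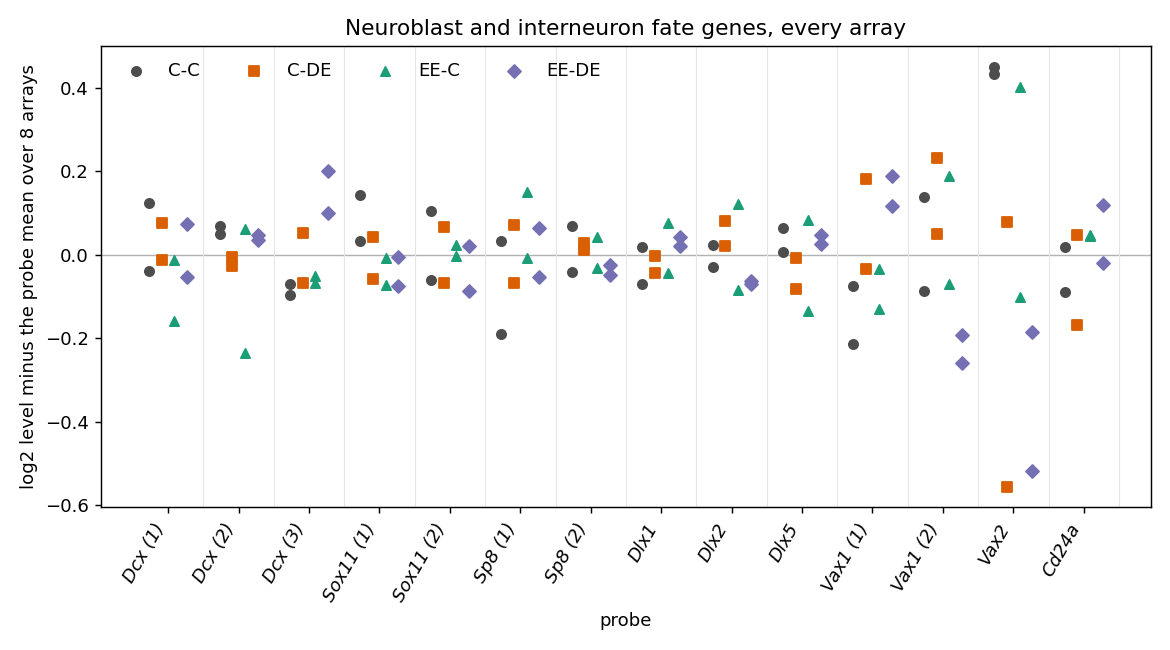
Log2 level of each of the 14 member probes on every array, minus the mean of that probe over the 8 arrays, with the groups as symbols and numbers in parentheses for probes of the same gene. The Vax2 points spread from about -0.55 to 0.45, with both C-C arrays and EE-C 1 at the top, whereas the other probes stay within 0.3 of 0.

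The only test that the 4 pools allow is an additive fit of exposure and rearing on the pool means with limma, which has 1 residual degree of freedom, takes any interaction as error and says nothing of the spread between mice. The SE of this fit is computed from the pool means. The gap between the 2 arrays of a pool, such as 0.63 for Vax2 in C-DE, does not enter that SE directly. In that fit the diesel exhaust effect on Vax2 was -0.59 (SE 0.063, unadjusted p = 0.00111), with an adjusted p of 0.624 by limma over all 21709 probes, and between 0.397 and 0.759 over the alternatives fitted on pool means. The difference was negative in both housing types. No probe of any gene passed an adjusted p of 0.05 for diesel exhaust or for rearing in this limma fit, whereas 1606 probes (7.40%) and 2101 probes (9.68%) had an unadjusted p under 0.05. Of the member probes, 2 of 14 did for diesel exhaust (Vax2 and Vax1 A_55_P2048833) and 1 of 14 for rearing (Vax2). The count for rearing was 5 with normexp, where 19.0% of all probes had such a p, and 0 with the looser filter that kept positive and significant spots or without C-DE 2, EE-C 1, EE-C 2 or EE-DE 1. The rearing effect on Vax2 was -0.20 and ranged from -0.36 to -0.04 when an array was left out. A limma fit of all 8 arrays with the pool as a random block counts technical duplicates beyond the 4 distinct samples, and its block correlation was negative at -0.35, which lowers the error of pool effects. In that fit 66 probes passed for diesel exhaust and 379 for rearing, 0 of the 14 member probes did, and the adjusted p of Vax2 for diesel exhaust was 0.0842.

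Vax1 was dim, and its probes went different ways in the enriched pools. Probe A_55_P2048833 measured -4.07 and -3.93 on C-C, -3.88 and -3.67 on C-DE, -3.88 and -3.98 on EE-C, and -3.73 and -3.66 on EE-DE. Probe A_55_P2116880 measured -3.78 and -4.00 on C-C, -3.69 and -3.87 on C-DE, -3.73 and -3.99 on EE-C, and -4.18 and -4.11 on EE-DE. In the first probe both EE-DE arrays were above both EE-C arrays, and in the second they were below them.

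By the first Vax1 probe, diesel exhaust differed from clean air by 0.22 (range 0.04 to 0.40) in standard cages and by 0.23 (range 0.15 to 0.32) with enrichment. By the second, the values were 0.11 (range -0.09 to 0.32) and -0.29 (range -0.45 to -0.12). The gene mean was 0.17 and -0.03, and no Vax1 value reached 1.5-fold. In the additive limma fit, the diesel exhaust effect was 0.23 (SE 0.042, adjusted p = 0.633) for the first probe and -0.09 (SE 0.113, adjusted p = 0.867) for the second. No common direction of Vax1 can be given from these arrays.

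The Dlx genes, which encode homeodomain factors that drive GABAergic interneuron fate and lie in linked pairs in the genome, showed small differences throughout. Dlx1 measured 2.95 and 3.04 on C-C, 3.02 and 2.98 on C-DE, 2.98 and 3.1 on EE-C, and 3.06 and 3.04 on EE-DE. Dlx2 measured 2.98 and 3.03 on C-C, 3.03 and 3.09 on C-DE, 3.13 and 2.93 on EE-C, and 2.95 and 2.94 on EE-DE. The arrays of Dlx1 overlapped in both exposure comparisons, and those of Dlx2 did as well. Between EE-DE and C-DE they did not, at 0.06 (range 0.02 to 0.09) for Dlx1 and -0.12 (range -0.15 to -0.09) for Dlx2. The same held between EE-DE and C-C, at 0.06 (range 0.00 to 0.11) and -0.06 (range -0.09 to -0.03). In these comparisons 42.2% and 47.1% of all probes did not overlap.

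The exposure differences of Dlx1 were 0.00 (range -0.06 to 0.07) and 0.02 (range -0.06 to 0.09) in standard and enriched housing, and those of Dlx2 were 0.06 (range -0.00 to 0.11) and -0.09 (range -0.19 to 0.02). Dlx5 measured 1.28 and 1.33 on C-C, 1.19 and 1.26 on C-DE, 1.14 and 1.35 on EE-C, and 1.30 and 1.32 on EE-DE. Both C-DE arrays of Dlx5 were below both C-C arrays, by -0.08 (range -0.15 to -0.01), and the enriched pools overlapped at 0.06 (range -0.06 to 0.18). Its arrays did not overlap between EE-DE and C-DE, at 0.08 (range 0.03 to 0.13).

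The neighbours of the Dlx genes also stayed under 1.5-fold with diesel exhaust, but not in a common direction. Dlx6, the partner of Dlx5, differed by -0.00 (range -0.14 to 0.13) with diesel exhaust in standard cages and by -0.09 (range -0.17 to -0.02) with enrichment. The antisense transcript Dlx6as1 differed by 0.08 (range -0.01 to 0.16) and 0.14 (range 0.11 to 0.16), and Dlx1as by -0.00 (range -0.09 to 0.08) and -0.14 (range -0.21 to -0.07). Dlx6as1 was also lower in EE-C than in C-C, by -0.19 (range -0.23 to -0.15). Next to Vax2, the antisense transcript Vax2os1 differed by 0.55 (range -0.17 to 1.27) with diesel exhaust in standard cages and by -0.13 (range -0.34 to 0.08) with enrichment. Its differences from C-C were 0.83 (range 0.20 to 1.46) for EE-C and 0.70 (range -0.10 to 1.5) for EE-DE, and its C-C arrays read -4.85 and -3.63. The upper ends of both ranges come from C-C 1. All neighbours were taken without the accession, background and outlier filters. The probe of the other neighbour, Atp6v1b1, was not well above background on any array.

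Sp8, a zinc finger factor needed for periglomerular interneurons, did not differ between pools beyond the gap between arrays in the exposure comparisons. Probe A_66_P138898 measured 4.10 and 4.21 on C-C, 4.17 and 4.15 on C-DE, 4.18 and 4.11 on EE-C, and 4.11 and 4.09 on EE-DE. Probe A_55_P2083806 measured between -1.79 and -1.45 over all 8 arrays. By the mean of both probes, Sp8 differed by 0.04 (range -0.07 to 0.16) in standard cages and by -0.05 (range -0.11 to 0.00) with enrichment.

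Of the genes of migrating and immature cells, Sox11, an HMG-box factor of differentiating neurons, was highest in C-C by the mean of its probes. Probe A_52_P160955 measured 0.26 and 0.37 on C-C, 0.27 and 0.17 on C-DE, 0.22 and 0.15 on EE-C, and 0.15 and 0.22 on EE-DE, and probe A_55_P2094721 between 0.54 and 0.73 over all arrays. The gene differed by -0.06 (range -0.19 to 0.07) and -0.02 (range -0.05 to 0.01) with diesel exhaust in standard and enriched housing and by -0.09 (range -0.17 to -0.01) between EE-DE and C-C. In that last comparison the arrays of the groups did not overlap.

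Dcx, a microtubule-associated protein of migrating neuroblasts, had 3 probes on the X chromosome. Only A_55_P2080126 had arrays that were separate in each of the 5 comparisons made. Those of A_52_P506493 were separate in C-DE minus C-C, EE-DE minus C-C and EE-DE minus C-DE. Single comparisons separated between 34.2% and 47.1% of all probes, and the share separate in all 5 was not counted. Probe A_55_P2080126 measured -0.83 and -0.80 on C-C, -0.68 and -0.80 on C-DE, -0.80 and -0.78 on EE-C, and -0.63 and -0.53 on EE-DE. The EE-DE arrays were the highest, and the difference from C-C was 0.23 (range 0.17 to 0.30), or 1.18-fold. The arrays of this probe were separated by less than 0.01 between C-C and C-DE and between C-C and EE-C.

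The other Dcx probes did not share that difference. Probe A_52_P244349 measured 2.91 and 3.07 on C-C, 3.02 and 2.94 on C-DE, 2.79 and 2.94 on EE-C, and 2.90 and 3.02 on EE-DE, and probe A_52_P506493 lay between -2.69 and -2.39. Their differences between EE-DE and C-C were -0.03 (range -0.18 to 0.11) and -0.02 (range -0.03 to -0.00). The mean of the 3 Dcx probes differed by -0.00 (range -0.07 to 0.06) with diesel exhaust in standard cages and by 0.14 (range 0.03 to 0.26) with enrichment.

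Cd24a, a surface glycoprotein of neuroblasts and of ependymal cells, measured 1.54 and 1.65 on C-C, 1.68 and 1.46 on C-DE, 1.68 and 1.68 on EE-C, and 1.75 and 1.61 on EE-DE. The exposure differences were -0.03 (range -0.19 to 0.14) and 0.00 (range -0.07 to 0.08). Both EE-C arrays were above both C-C arrays by 0.08 (range 0.02 to 0.14), a difference that was 0.19 with normexp and 0.03 without C-C 1. Of the ependymal and ciliated cell genes, 5 of 8 passed, and their medians were -0.01 and 0.03 in the exposure comparisons.

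**Figure D2:**
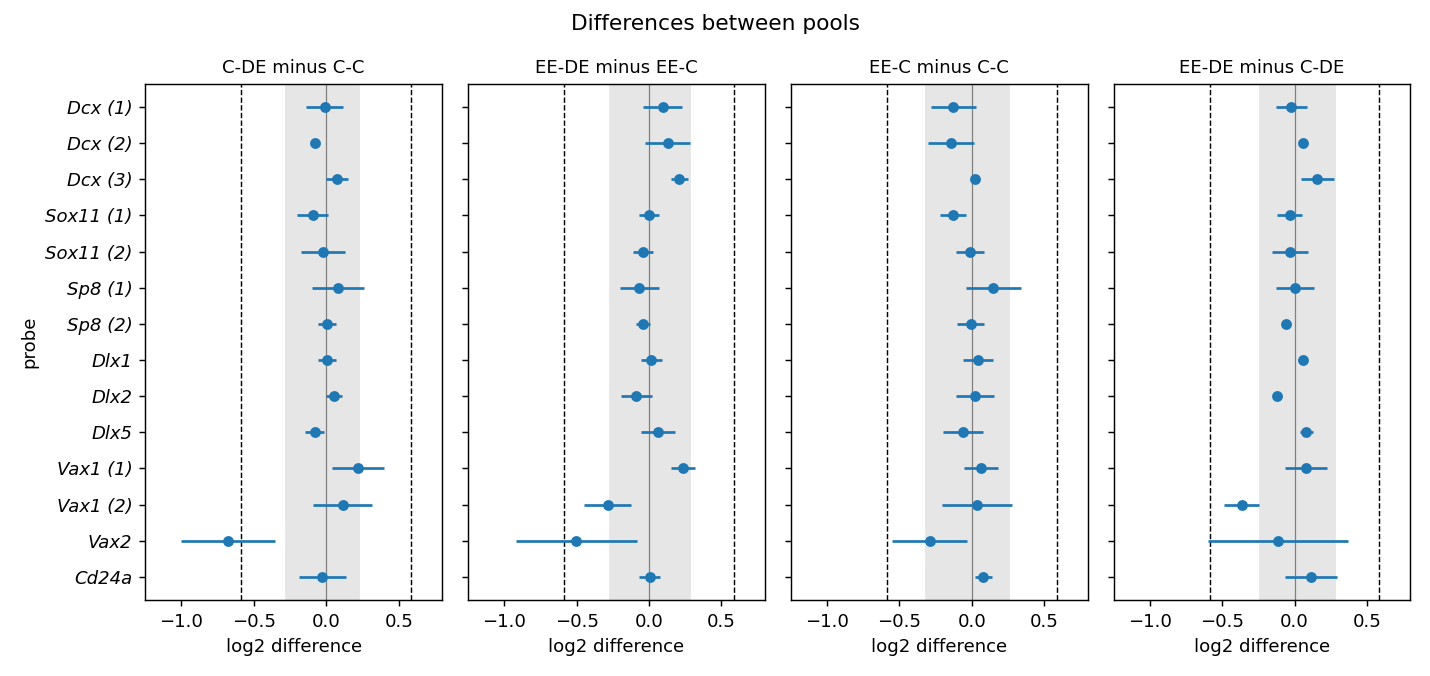
Log2 difference between pools for each of the 14 member probes in 4 comparisons, with bars for the range over the 4 pairings of arrays, dashed lines at 1.5-fold and a grey band for the central 95 percent of all 21709 probes. Vax2 is past the dashed line at -0.68 in C-DE minus C-C, and the Vax1 probes lie on opposite sides of 0 in EE-DE minus EE-C at 0.23 and -0.29.

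Over the 9 genes, the median difference was close to 0 in every comparison. It was -0.00 for C-DE minus C-C, with 4 genes above and 5 below 0, and -0.02 for EE-DE minus EE-C, also with 4 above and 5 below. The medians over all probes were -0.01 in both. For EE-DE minus C-C the member median was 0.02, for EE-C minus C-C it was 0.02 and for EE-DE minus C-DE it was -0.03, against -0.01, 0.01 and 0.00 over all probes. These comparisons share pools and are not independent of each other.

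The size of the member differences was also near that of all probes for exposure. The median absolute difference over the 9 genes was 0.0555 for C-DE minus C-C and 0.0538 for EE-DE minus EE-C, against 0.0590 and 0.0604 over all probes. Member genes with several probes were averaged for all such medians, whereas values over all probes are of single probes. The arrays of the groups did not overlap for 5 of 14 member probes in the first comparison and 4 of 14 in the second, where 40.9% and 34.2% of all probes did not overlap. For EE-DE minus C-C, EE-C minus C-C and EE-DE minus C-DE the counts were 8, 4 and 7 of 14, beside 47.1%, 37.7% and 42.2%. The exposure effect with enrichment minus that in standard cages had a median absolute size of 0.14 over the 9 genes and of 0.08 over all probes, and 0 member probes were past 1.5-fold beside 1.48% of all probes.

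**Figure D3:**
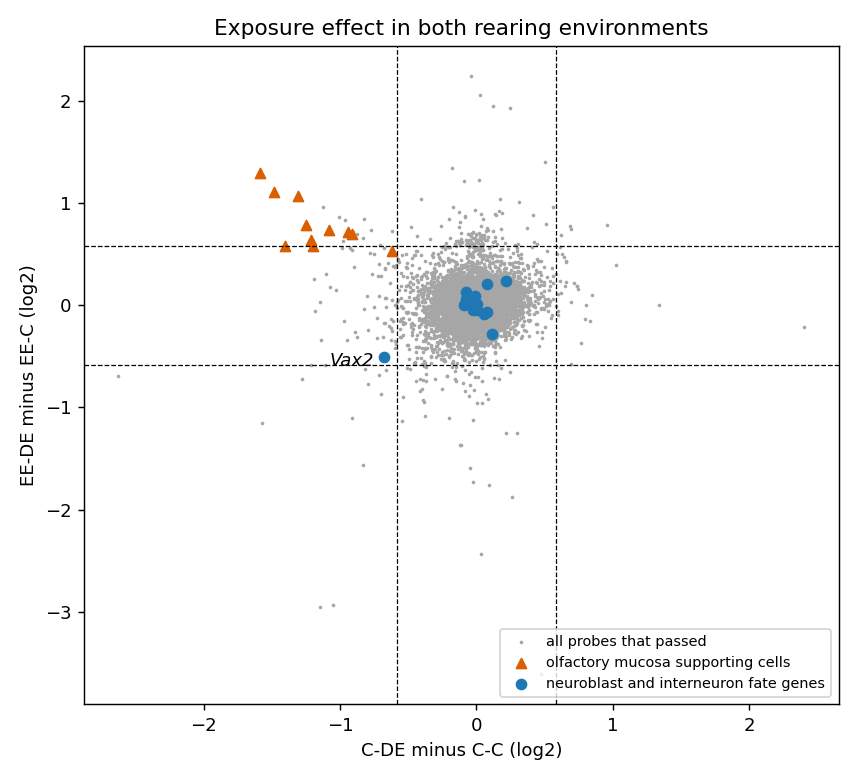
Log2 difference with diesel exhaust in standard cages (horizontal) and with enrichment (vertical) for all 21709 probes in grey, the 14 member probes in blue and the probes of 9 mucosa supporting cell genes in orange, with dashed lines at 1.5-fold. Vax2 lies at -0.68 and -0.50, below 0 on both axes, and the mucosa probes lie at the upper left, lower in C-DE than C-C and higher in EE-DE than EE-C.

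Genes related to the members were taken from lists of the same biology. Of 16 further transcription factors of bulb interneurons, 14 passed and 0 were past 1.5-fold in any comparison, with medians of -0.04 for C-DE minus C-C and -0.02 for EE-DE minus EE-C. Dlx6, Meis2, Sp9 and Etv1 lay between -0.09 and 0.07 in both. The lowest value, -0.45, belonged to Gsx1, a homeobox gene of ganglionic eminence progenitors, for C-DE minus C-C, where the enriched pools differed by -0.08.

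Genes of the neuroblast cytoskeleton and surface gave the same picture. Of 14, 13 passed, with medians of -0.02 and -0.01 and a range of -0.12 to 0.15 in C-DE minus C-C. Stmn1, Stmn2 and Tubb3, which act on or form microtubules, differed by 0.02, 0.00 and 0.15 in that comparison. Of 16 migration cues and receptors, 15 passed, with medians of -0.03 and -0.02. Prok2, which attracts neuroblasts to the bulb, differed by 0.07 and -0.03, and its receptor Prokr2 by -0.14 and -0.06. None of the genes in these lists was past 1.5-fold in any of the 5 comparisons between pools.

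Markers of the cells that the members give rise to, and of dividing progenitors, were also close to 0. The 9 mature interneuron genes had medians of 0.06 and -0.04, with Gad1 at 0.06 and -0.04 and Th at -0.00 and -0.01. Of 8 proliferation genes, 4 passed, with medians of -0.09 and -0.06, and Mki67 differed by -0.19 and 0.07. In whole bulb RNA, fewer cells of a type and less RNA in each cell cannot be told apart.

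The lists that did differ were of cells outside the neuroblast lineage. All 9 mucosa supporting cell genes were past 1.5-fold lower in C-DE than in C-C (median -1.21, with Cyp2g1 at -1.59, Cyp2f2 at -1.08, Ugt2a1 at -1.20, Krt8 at -1.40, and Krt18, Cbr2, Aqp3, Umodl1 and Sec14l3 between -1.31 and -0.93). Among all probes, 0.433% were past 1.5-fold lower in this comparison. Ugt2a1, Cyp2f2, Krt18, Aqp3 and Umodl1 are among the genes the paper selected at 1.5-fold from these same arrays, as are Cnga4 and S100a8 below. Their calls here are therefore no independent result. In EE-DE against EE-C, 7 of 9, all but Ugt2a1 and Krt8, were past 1.5-fold higher (median 0.74), beside 0.608% of all probes. The count in standard cages was 9 whichever of the 4 arrays was left out, with medians from -1.68 to -0.75. That with enrichment depended on the arrays, with 9 of 9 genes without EE-C 1 (median 1.30), 9 of 9 without EE-DE 1 (1.11), 2 of 9 without EE-DE 2 (0.40) and 0 of 9 without EE-C 2 (0.11). Of 10 olfactory sensory neuron genes, Cnga4 and Ano2 were past 1.5-fold in each, at -0.95 and -0.90 in standard cages and both at 0.72 with enrichment, while Omp differed by -0.13 and 0.04. With enrichment, 0 of the 10 genes were past 1.5-fold without EE-C 2 or without EE-DE 2. In the 7 neutrophil and red blood cell genes the medians were -0.39 and -0.26, with S100a8, S100a9 and Ngp past 1.5-fold in standard cages at -0.89, -0.88 and -0.73. Without an array, the first median ranged from -0.46 to -0.20, with 2 or 3 genes past 1.5-fold, and the second from -0.92 (without EE-C 2) to 0.23 (without EE-C 1). In the other comparisons the medians of these 7 genes were -0.02 for EE-DE minus C-C, 0.21 for EE-C minus C-C and 0.47 for EE-DE minus C-DE, where Vax2 differed by -0.79, -0.29 and -0.11. Without an array, these medians of the 7 genes ranged from -0.17 to 0.32, from -0.23 to 0.86 and from 0.15 to 0.71, in that order. The mucosa medians there were 0.37 with 2 of 9 genes past 1.5-fold higher, -0.32 with 2 of 9 lower, and 1.62 with 9 of 9 higher, and the first and second ranged from -0.02 to 0.77 and from -0.91 to 0.31 when an array was left out. The first count was 9 without C-C 1 or EE-DE 1 and 0 without C-C 2 or EE-DE 2. The second was 9 without EE-C 1, 8 without C-C 2 and 0 without C-C 1 or EE-C 2. The lists of mitral and tufted cells, astrocytes, oligodendrocytes and neurons of other forebrain areas had medians between -0.03 and 0.07 in C-DE minus C-C and EE-DE minus EE-C. The part of these other cells in the Vax2 values was not tested.

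**Figure D4:**
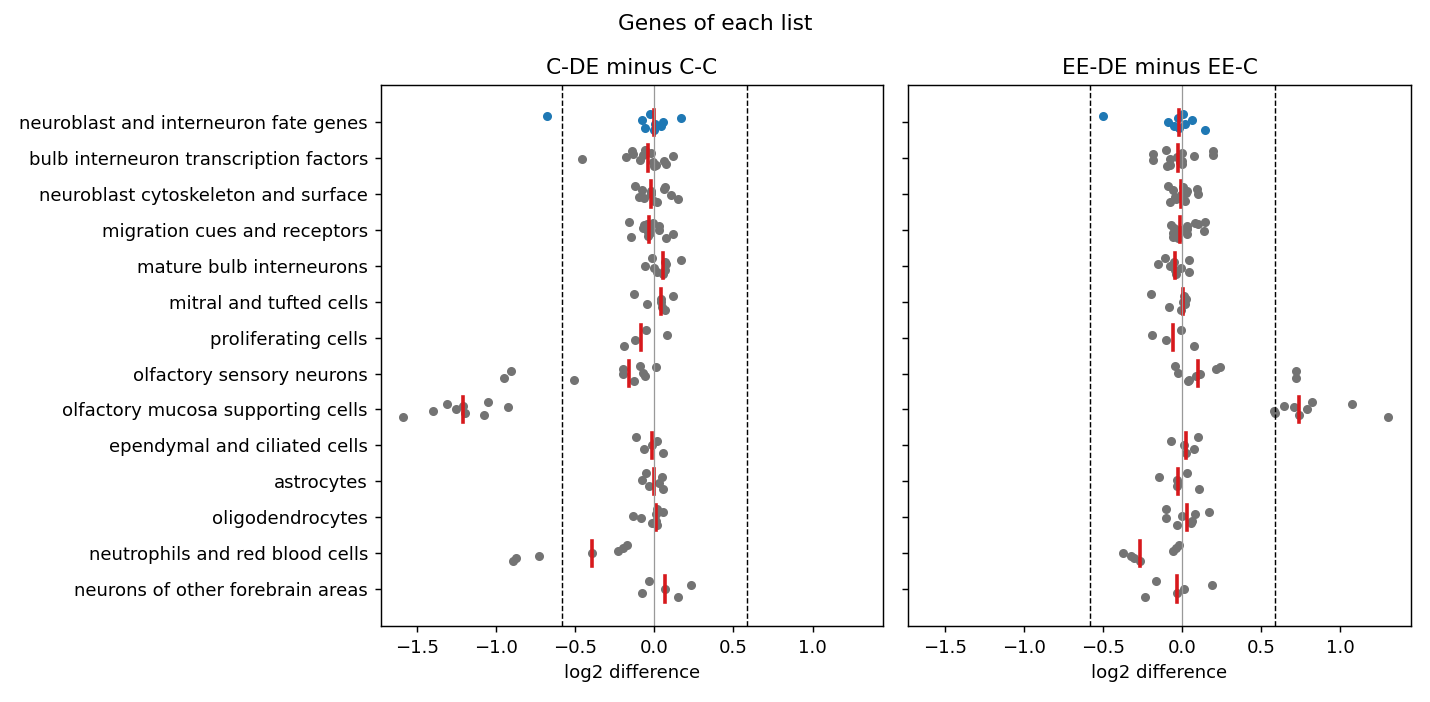
Log2 difference of each gene that passed, by list, for diesel exhaust against clean air in standard cages (left) and with enrichment (right), with red bars for list medians and dashed lines at 1.5-fold. Of the 9 neuroblast and interneuron fate genes in blue, 8 cluster around 0 and Vax2 stands apart at -0.68 and -0.50, and the mucosa list is at -1.21 and 0.74.

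The genes with pool means most like those of Vax2 were searched among 16483 other genes, by root mean square distance over the 4 centred pool means. The nearest were Rtn4rl2 (0.051), Cass4 (0.069), Rnf112 (0.071), Folr4 (0.075) and Zfp366 (0.084), each with 1 probe. Rtn4rl2, a member of the Nogo receptor family, had pool means of -2.53 (C-C) and -3.13 (C-DE) in standard cages and of -2.76 (EE-C) and -3.18 (EE-DE) with enrichment. Rnf112, a brain-expressed RING finger gene, had 0.67, 0.17, 0.44 and 0.01 in the same order. Like Vax2, both were highest in C-C and lowest in EE-DE, and likeness over 4 values is given as a description only.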

How the data were processed

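Whole olfactory bulb RNA of 4 group pools was measured on 8 single-colour arrays. The intensity values are those the authors deposited, as Agilent Feature Extraction 10.7.3.1 output, with background subtracted and spatial trends removed. The log2 values of the series table were also deposited by the authors and lay within 0.02 of those computed here for 99.4% of probes.

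Here, log2 of the processed signal minus log2 of the array's 75th percentile over noncontrol spots was taken. Spots with a GenBank or RefSeq accession, well above background on all 8 arrays and without outlier flag were kept, and spots of a probe were averaged, leaving 21709 probes of 16484 genes. Each pool took the mean of its arrays, and 1.5-fold was the threshold for a call. A gene is the mean of its probes that passed. Exposure and rearing were fitted with limma 3.58.1 in R 4.3.3, tested on simulated data, with Benjamini-Hochberg adjustment over all probes. Other steps used Python 3.11.15, numpy 2.4.6 and pandas 2.3.3. All 15 member probes are accounted for, and of the other lists the first genes and those past 1.5-fold are named. Members and lists were chosen with earlier results of these data known. The precision is limited by the single pool of each group, and its 2 arrays cover array error only. Alternatives were background correction, normalization, scale, filters, the series table, local centring, probe choice, averaging, call rule and leaving out each array.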

Additional observations from a re-analysis of the deposited data

How the results depend on the processing

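Of 247 medians and counts of the main comparisons under the alternatives, 232 stayed the same. A median did so within the array spread, and a count when equal or within a factor of 1.5. Direction was not checked for these values. They include the counts of member probes with an adjusted p under 0.05, which were 0 in every setting. The number of member probes past 1.5-fold for C-DE minus C-C was 0 with normexp, 0 when all 4 pairings had to pass and 2 with no filter on low values, where the dim Dlx1 probe was added. With normexp it was 0 for EE-DE minus C-C. Medians that moved were 0.027 with normexp for EE-DE minus C-DE, -0.029 with local spatial centring for EE-C minus C-C and -0.033 with the brightest probe of a gene for EE-DE minus C-C. The cause was not tested. Leaving out each array in turn gave 0 to 1 member probes called for C-DE minus C-C (0 without C-DE 1) and 0 to 1 for EE-DE minus EE-C (1, Vax2, without EE-C 2 or EE-DE 2). The medians then ranged from -0.027 to 0.031 for EE-DE minus C-C, from -0.026 to 0.040 for EE-DE minus C-DE and from -0.018 to 0.027 for EE-C minus C-C.

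Without an array, Vax2 ranged from -0.997 to -0.36 for C-DE minus C-C and from -0.75 (without EE-C 2) to -0.25 (without EE-C 1) for EE-DE minus EE-C. Leaving out arrays in the mucosa, sensory neuron and blood cell lists was chosen after seeing the data. The 8 other genes gave 864 values under all alternatives, from -0.28 to 0.44, and 0 were past 1.5-fold. Counts over all probes moved more, from 23 (all pairings) to 5173 (no filter) for C-DE minus C-C and from 17 to 13310 for EE-DE minus EE-C, 24 to 13200 for EE-DE minus C-C, 10 to 5618 for EE-C minus C-C, 38 to 12892 for EE-DE minus C-DE and 186 to 14517 for the difference of exposure effects. No paired analysis was possible because each group is 1 pool, whose 2 arrays share its RNA and were averaged. The replicate numbers mark technical arrays only.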
